A study of Mus musculus with 12 samples.

Results

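RNA from CD11b+ dendritic cells of the mouse kidney was compared between nephritis and health, in 3 libraries per state. A gene was a member of the comparison if its deposited log2 value was at least 0, that is at least 1 CPM, the count scaled to library size, in at least 3 of these 6 libraries. This kept 13075 of the 26121 genes in the table, and 14180 genes passed the same minimum over all 12 libraries of the study and were fitted together. Of the members, 11148 reached the minimum in all 6 libraries and 671 in exactly 3, while 623 genes that reached it in exactly 2 lay just outside. Some members passed through 1 state alone: 331 reached the minimum in the 3 nephritic and at most 1 healthy library, and 455 the reverse.

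Conventional dendritic cells take up antigen, carry it to T cells and release cytokines and chemokines, and in tissues they fall into a type 1 lineage (cDC1) that bears CD103 and a type 2 lineage (cDC2) that bears CD11b. The kidney's CD11b+ compartment also borders on monocyte-derived cells and resident macrophages, which share many of its surface proteins. In nephrotoxic nephritis, antiserum against glomerular antigens deposits antibody in the kidney and is followed by recruitment of leukocytes, so receptors for antibody and complement, chemokines and interferon-induced genes are the pathways usually studied in it.

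All mice were wild-type males aged 8 to 12 weeks. Of 6 mice 3 formed the healthy state, and the other 3 had received nephrotoxic antiserum 7 days before the kidneys were taken. CD103+ and CD11b+ cells were sorted in each state, and the labels do not say which CD103+ and CD11b+ libraries came from the same mouse. The labels give no dendritic cell marker beyond these sorted subsets that would separate them from macrophages. The CD11b+ libraries held 11486182, 19456844 and 16563113 reads in health and 19856950, 23837024 and 26556814 reads in nephritis, so that 3 reads were worth 0.112 to 0.254 CPM. The mice are separate animals, so p-values measure the spread between mice together with that between sorts and libraries.

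The sorted cells were checked against their labelled type. All 22 listed cDC2 genes were members, and their summed level was 6516, 6434 and 6380 CPM in health against 9684, 9806 and 10129 CPM in nephritis. Macrophage markers were also present, with a sum of 1530 to 1665 CPM in health and 2748 to 3205 CPM in nephritis over 28 genes, of which 22 were members. The resident macrophage genes Vsig4, Lyve1, Siglec1, Cd5l, Gpnmb and Folr2 stayed below the member minimum, and Cd5l had no read in any of the 6 libraries. Monocyte markers summed to 2296 to 2905 CPM and 4201 to 4453 CPM. Neutrophil markers summed to 104 to 177 CPM and 254 to 435 CPM over 17 genes, 10 of them members, and Ly6g, the defining neutrophil surface gene, had no read in any library. The sums of cDC2, macrophage, monocyte and neutrophil markers did not overlap between states, each with an exact permutation p of 0.1, two-sided, the smallest that 3 against 3 libraries allow. In bulk RNA, more cells of a type and more RNA per cell cannot be told apart.

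CD11b+ libraries of nephritic kidneys held more RNA for many chemokines, antibody and complement receptors, interferon-induced GTPases, matrix genes and DNA replication. They held less for B cell, tubule and mitochondrial genes and for the immediate-early genes Jun, Junb and Ier2. Which cells of the sort held this RNA was not measured. Of the members, 2808 rose, a background of 21.5%, and 2118 fell, a background of 16.2%, by limma at an adjusted p under 0.05. Another 8149 did not pass. The median log2 difference was 0.09 over all members, 0.91 over those that rose and -1.19 over those that fell. In 2746 of the genes that rose and 2062 of those that fell the 3 nephritic libraries lay apart from the 3 healthy ones, where 52.9% of all members, called or not, had no overlap. Differences of at least 1 on the log2 scale were called for 1155 genes upward and 1329 downward, and of at least 3 for 122 and 108.

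The split between higher and lower genes depends on what the levels are set against. In CPM, 57.0% of the called genes were higher. When each library was instead shifted to 1 mean level of 36 genes shared by leukocytes, called leukocyte scaling below, the median of all genes moved by -0.43 and 618 genes rose, a background of 4.73%, while 2735 fell, a background of 20.9%, so that 18.4% of calls were higher. Of those 36 genes 17 themselves rose and 5 fell in CPM; 11 rose without nephritic 3, and 1 fell without healthy 1, healthy 2, nephritic 1 or nephritic 2. Among those that rose was Lcp1, which encodes the actin-bundling protein L-plastin, at 1070, 1113 and 987 CPM in health and 2704, 2424 and 2391 CPM in nephritis. Gene group counts below are therefore given in CPM and again with leukocyte scaling.

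**Figure D1:**
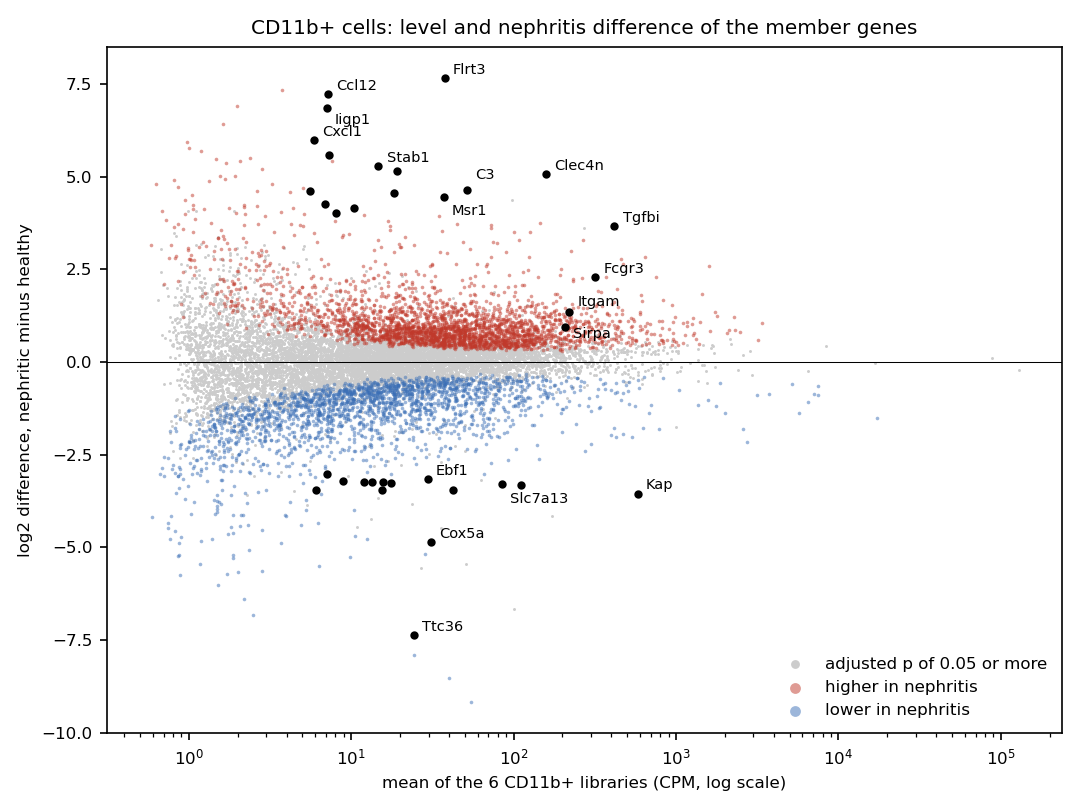
Mean level over the 6 CD11b+ libraries (CPM, log scale) against the log2 difference, nephritic minus healthy, for the 13075 member genes. Red points are the 2808 genes higher and blue points the 2118 genes lower in nephritis in CPM, against 618 and 2735 with leukocyte scaling, grey points did not pass and black points are the fixed markers and the 30 genes with the largest called differences at a mean of at least 10 CPM in the higher state. Flrt3, Ccl12 and Clec4n stand far above the line at 0, and Ttc36, Cox5a and Kap far below it.

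The 5 genes fixed as markers of these cells all rose in nephritis in CPM, and all but Sirpa did so with leukocyte scaling as well. Itgam (chr7:128062640-128118491 on GRCm38), which encodes the CD11b integrin chain used for the sort, was at 114, 129 and 129 CPM in the healthy libraries and 301, 346 and 299 CPM in the nephritic libraries, a log2 difference of 1.34 ± 0.15 (SE, n = 3 per state, limma adjusted p = 3.35e-05). Exons of other genes cover 68.7% of its exons, so part of its reads could belong to them. Sirpa (chr2:129592835-129632228), which encodes the SIRP alpha receptor for CD47 and is a cDC2 marker, was at 167, 137 and 122 CPM in the healthy libraries and 253, 272 and 285 CPM in the nephritic libraries. The groups did not overlap and the difference was 0.94 ± 0.25 (limma adjusted p = 0.0101), but it did not pass with leukocyte scaling, at 0.51 (adjusted p = 0.314).

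Fcgr3 (chr1:171051174-171064935) encodes an activating receptor for IgG complexes. It was at 97.5, 131 and 96.5 CPM in the healthy libraries and 479.6, 567 and 528 CPM in the nephritic libraries, 4.88-fold higher (log2 2.29 ± 0.18, limma adjusted p = 2.68e-06). Tgfbi (chr13:56609523-56639562), which encodes a matrix protein induced by TGF-beta, was at 46.5, 74.4 and 64.7 CPM in the healthy libraries and 662, 792 and 859 CPM in the nephritic libraries, 12.6-fold higher (log2 3.66 ± 0.27, limma adjusted p = 1.62e-06). All 3 nephritic libraries were far above all 3 healthy ones for both genes. Clec4n (chr6:123229843-123247021) encodes dectin-2, a lectin receptor for fungal mannans, and showed the widest gap of the 5 markers, at 10.4, 9.26 and 7.85 CPM in the healthy libraries and 288, 289.5 and 348 CPM in the nephritic libraries. Its level was 33.6-fold higher (log2 5.07 ± 0.75, limma adjusted p = 0.000336).

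**Figure D2:**
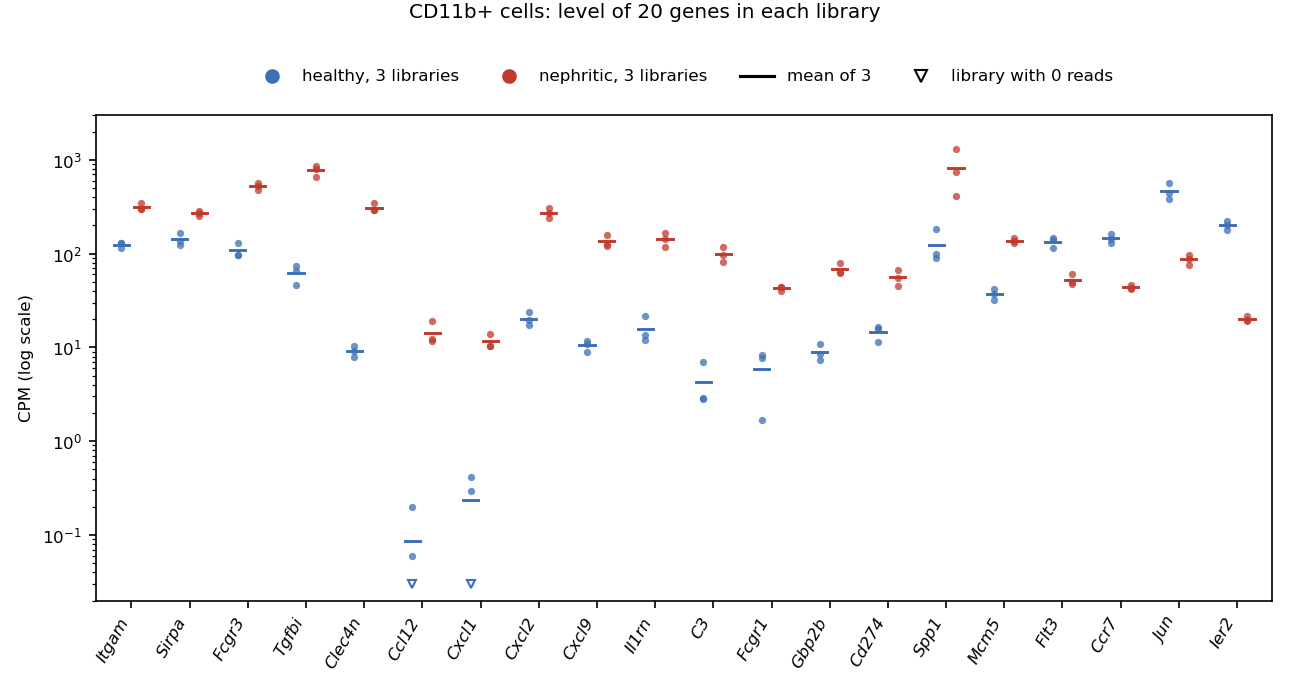
Level of 20 genes in each CD11b+ library (CPM, log scale), with blue points for the 3 healthy and red points for the 3 nephritic libraries, bars for the mean of 3 and open triangles for libraries with 0 reads. The first 15 genes from Itgam to Spp1, and Mcm5, are higher in every nephritic library, while Flt3, Ccr7, Jun and Ier2 are lower in every one.

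Genes of cDC2 identity moved upward more often than down in CPM. Of the 22 members 11 rose and 3 fell, with a median log2 difference of 0.80 against 0.09 over all members, and with leukocyte scaling 6 rose and 5 fell. Itgax, which encodes the CD11c integrin chain of dendritic cells, was at 272, 249 and 247 CPM in the healthy libraries and 1263, 1266 and 1229 CPM in the nephritic libraries, and the 2 groups stood well apart (log2 2.29 ± 0.19, limma adjusted p = 3.96e-06). Irf4, Klf4, Notch2 and Clec10a were named after their values were seen. The first 3 did not pass, at log2 -0.30, -0.37 and -0.50 (limma adjusted p = 0.385, 0.298 and 0.101). Clec10a fell by 0.47 (limma adjusted p = 0.0301), a call lost without healthy 2, healthy 3, nephritic 2 or nephritic 3. Genes shared by conventional dendritic cells split evenly: of 17 members 4 rose and 4 fell, and with leukocyte scaling 2 rose and 8 fell. Kit, a growth factor receptor of progenitors, was at 15.5, 11.3 and 14.04 CPM in health and 46.9, 48.05 and 45.8 CPM in nephritis, while Slamf7, an adhesion receptor of leukocytes, went from 245, 206 and 164 to 67.5, 76.4 and 47.2 CPM and Bcl11a, a transcription factor of lymphoid and dendritic lineages, from 74.3, 92.6 and 78.4 to 37.7, 29.9 and 21.8 CPM. Flt3, the growth factor receptor that maintains conventional dendritic cells, was named after its values were seen. It was at 113, 139 and 147 CPM in the healthy libraries and 49.8, 60.2 and 47.9 CPM in the nephritic libraries (log2 -1.34 ± 0.25, limma adjusted p = 0.00127).

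Macrophage and monocyte genes rose beside them. Of 22 macrophage members 15 rose and 3 fell, with a median of 1.66, and with leukocyte scaling 8 rose and 4 fell. The count of 15 fell to 8 without nephritic library 2 or nephritic library 3. Cx3cr1, the fractalkine receptor, was at 67.5, 58.6 and 49.9 CPM in the healthy libraries and 304, 389 and 301 CPM in the nephritic libraries (log2 2.50 ± 0.21, limma adjusted p = 4.69e-06). Axl, a receptor for dying cells, was at 14.4, 23.95 and 16.2 CPM and 114, 129 and 139.7 CPM, again with a wide gap between the states. Cd81, a tetraspanin also made by many other cells, moved the other way, from 250.4, 279.7 and 323 to 111, 107 and 136 CPM. So did Cd163 and Maf, named after their values were seen, at log2 -1.68 and -0.64 (limma adjusted p = 0.00350 and 0.00827). Both kept their call whichever single library was left out.

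Of 19 monocyte members 8 rose and 1 fell, with a median of 1.10, and with leukocyte scaling 6 rose and 4 fell. Fn1, which encodes fibronectin, was at 9.63, 13.9 and 9.62 CPM in the healthy libraries and 133, 146 and 125 CPM in the nephritic libraries (log2 3.62 ± 0.54, limma adjusted p = 0.000261). Thbs1, encoding the secreted matrix protein thrombospondin 1, was at 6.76, 8.76 and 8.32 CPM and 67.99, 52.5 and 67.3 CPM. Ear2, a ribonuclease gene of monocytes and eosinophils with near-identical copies, and Gpr141, an orphan receptor, rose by 1.60 ± 0.28 and 1.48 ± 0.26 on the log2 scale. For Ccr2, the receptor that draws monocytes from blood, which was named after its values were seen, the levels were 916, 1011 and 778 CPM in health and 2021, 2045 and 1604 CPM in nephritis (limma adjusted p = 0.00259). Of 10 neutrophil members 4 rose and none fell, with a median of 0.80, and with leukocyte scaling 3 rose and 1 fell. Mmp8, Lcn2, Csf3r and Cxcr2 rose by 4.56, 3.70, 2.22 and 1.71 on the log2 scale. The call of Cxcr2 was lost when any library but healthy 2 was left out. S100a8 and S100a9, named after their values were seen, did not pass (limma adjusted p = 0.913 and 0.868).

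More markers of type 1 dendritic cells fell than rose, although their sum was not lower. Of 16 members 3 rose and 9 fell, with a median log2 difference of -1.05, and the counts were the same with leukocyte scaling. Xcr1, the chemokine receptor that defines cDC1, was at 15.5, 25.7 and 17.9 CPM in the healthy libraries and 6.11, 4.05 and 4.16 CPM in the nephritic libraries, and every nephritic library was below every healthy one (log2 -2.04 ± 0.28, limma adjusted p = 0.000131). Cadm1, an adhesion gene of cDC1, went from 115, 112 and 105 to 32.6, 33.8 and 25.9 CPM. The 3 that rose, named after their values were seen, were Itgae, which encodes the CD103 integrin chain, Ifi205 and Rab7b, at log2 1.17 ± 0.28, 1.15 ± 0.21 and 1.49 ± 0.29 (limma adjusted p = 0.00561, 0.000944 and 0.00161). Itgae stayed low, at 1.69, 3.27 and 1.71 CPM in health and 5.05, 4.77 and 4.65 CPM in nephritis. The summed level of the 18 listed genes was nonetheless 749 to 844 CPM in health and 884 to 921 CPM in nephritis, so the sum and the median of the list differ in sign.

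Among lymphocyte genes, none of the 11 B cell members rose and 8 fell, with a median of -1.76, and 9 fell with leukocyte scaling. Ms4a1, which encodes CD20, was at 37.7, 46.9 and 26.1 CPM in the healthy libraries and 12.1, 5.88 and 8.39 CPM in the nephritic libraries (log2 -2.09 ± 0.30, limma adjusted p = 0.000208). Fcer2a, the low-affinity IgE receptor CD23, went from 26.2, 24.6 and 15.3 to 4.73, 2.09 and 2.02 CPM, and the antigen receptor chains Cd79a and Cd79b had log2 differences of -1.79 ± 0.25 and -1.85 ± 0.28. The 216 immunoglobulin gene segments summed to 10116, 15850 and 9790 CPM in health and 4376, 3726 and 2285 CPM in nephritis. Their share of reads was thus 1.002 to 1.65% against 0.230 to 0.415%, and the groups did not overlap.

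Of 18 T cell members 1 rose and 8 fell, and of 12 NK cell members 2 rose and 4 fell, with medians of -0.55 and -0.85. With leukocyte scaling none rose in either list, and 10 T cell and 7 NK cell genes fell. The 8 T cell genes became 4 without healthy library 1 and 5 without nephritic library 1 or nephritic library 2, and the 2 NK cell rises became 1 without healthy 1, nephritic 2 or nephritic 3. Cd3d, a chain of the T cell receptor complex, was at 88.4, 58.01 and 63.5 CPM in health and 29.9, 27.3 and 34.5 CPM in nephritis, and Klrd1, a chain of NK receptors, at 118, 95.6 and 77.3 CPM and 33.7, 32.2 and 32.6 CPM. Neither gene's groups overlapped. The NK genes that rose were Klrb1c and Il2rb, the latter named after its values were seen. Their log2 differences were 1.30 and 0.84 (limma adjusted p = 0.00902 and 0.0215), and Klrb1c kept its call whichever single library was left out.

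**Figure D3:**
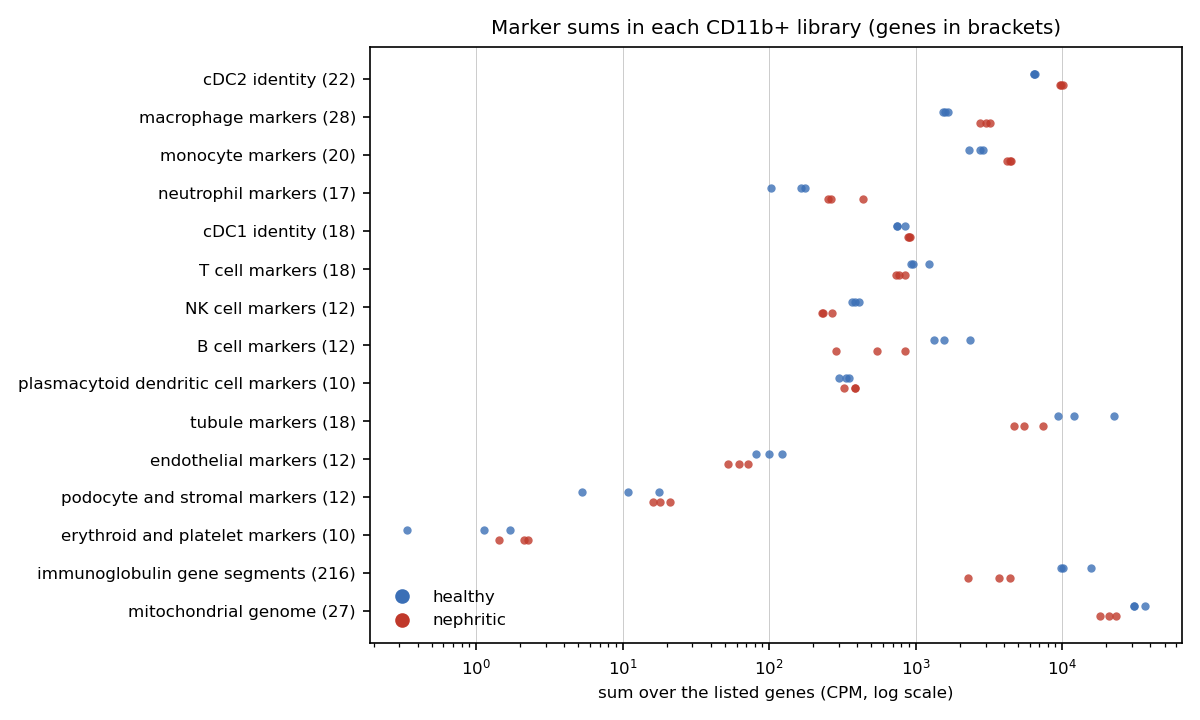
Sum of each cell type's marker genes in each of the 6 CD11b+ libraries (CPM, log scale), blue for healthy and red for nephritic, with the number of genes summed in brackets. Sums of cDC2, macrophage, monocyte and neutrophil markers are higher, and those of B cell, immunoglobulin, tubule and mitochondrial genes lower, in every nephritic library in CPM.

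The largest rises belonged to genes that were nearly silent in health. Flrt3 (chr2:140650914-140671469), which encodes a transmembrane protein of cell adhesion and axon guidance, was at 0.0845, 1.48 and 0.236 CPM in the healthy libraries and 74.6, 80.7 and 68.6 CPM in the nephritic libraries (log2 7.65 ± 0.77, limma adjusted p = 1.97e-05). Every nephritic library was far above the highest healthy one, and the log2 difference ran from 6.88 to 8.67 as single libraries were left out, with healthy 1 and healthy 2 at the ends. Stab1 (chr14:31139013-31168641), a scavenger receptor of sinusoidal endothelium and macrophages, was at 1.01, 1.63 and 0.177 CPM in the healthy libraries and 20.3, 31.3 and 33.8 CPM in the nephritic libraries (log2 5.29 ± 0.77, limma adjusted p = 0.000205). It ranged from 4.39 to 5.90 without healthy 3 and healthy 2 in turn.

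C3 (chr17:57203970-57228136), the central complement component, was at 2.87, 7.03 and 2.83 CPM in the healthy libraries and 119, 95.6 and 82.03 CPM in the nephritic libraries, 25.1-fold higher (log2 4.65 ± 0.89, limma adjusted p = 0.00220). Msr1 (chr8:39581685-39642673), a scavenger receptor for modified lipoproteins, was at 4.90, 3.17 and 2.07 CPM and 68.2, 68.7 and 75.3 CPM, with no overlap. Vcam1, an adhesion ligand for leukocytes, was uneven within nephritis, at 24.1, 73.4 and 13.7 CPM after 1.35, 2.62 and 0.118 CPM in health (log2 5.15 ± 1.28, limma adjusted p = 0.00931), and its difference ran from 3.92 to 6.00 without healthy 3 and healthy 2.

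Nrg1, a ligand of ErbB receptors, was at 1.35, 0.643 and 1.24 CPM and 27.4, 18.4 and 13.3 CPM, and Ch25h, which makes 25-hydroxycholesterol, at 0.169, 1.44 and 2.12 CPM and 9.25, 15.2 and 19.97 CPM. Both groups stood apart in both genes. Ffar2, a receptor for short-chain fatty acids, and Abcc3, an export pump for organic anions, rose by 5.59 ± 1.08 and 4.61 ± 1.03 on the log2 scale. Single healthy libraries moved the difference of Ffar2 from 4.22 to 6.73, without healthy 1 and healthy 2, that of Ch25h from 2.99 to 4.67, without healthy 1 and healthy 3, and that of Abcc3 up to 5.42, without healthy 1. P2ry13, a receptor for ADP, was at 0, 2.72 and 1.77 and 6.75, 11.5 and 18.7 CPM, and its call was lost without nephritic 3 (limma adjusted p = 0.0518).

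The 8 rises with the smallest p-values were those of Cxcl9, Fgr and Gbp7, described with their groups, and of Csf2rb, Lilrb4a, Lilr4b, Dgat1 and Mir6236. Csf2rb (chr15:78325752-78353847), the shared signalling chain of the receptors for GM-CSF, IL-3 and IL-5, was at 91.4, 89.8 and 91.9 CPM in the healthy libraries and 446, 501 and 370.4 CPM in the nephritic libraries (log2 2.26 ± 0.14, limma adjusted p = 4.60e-07). Lilrb4a and Lilr4b, which encode receptors of the leukocyte immunoglobulin-like family, were at 156, 169.8 and 154 and 47.8, 52.7 and 48.6 CPM in health and 1128, 1144 and 1135 and 467, 495 and 486 CPM in nephritis. Other genes cover 98.9% of the exons of Lilrb4a, so the levels of this family are uncertain. Dgat1, which makes triacylglycerol, rose from 28.98, 38.4 and 40.7 to 182, 197 and 202 CPM. The annotated microRNA gene Mir6236 rose by 3.51 ± 0.24 on the log2 scale, which in these libraries counts reads at its locus and not the mature microRNA.

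Chemokine genes were listed by the cells their products attract. Neutrophil-attracting chemokines had 3 members, of which 2 rose and 0 fell with either scaling, and a median log2 difference of 3.75. Cxcl1 (chr5:90891241-90893115) and Cxcl2 (chr5:90903871-90905938), ligands of the neutrophil receptor CXCR2, lie next to each other on chromosome 5. Cxcl1 was at 0, 0.297 and 0.413 CPM in the healthy libraries and 10.3, 14.02 and 10.5 CPM in the nephritic libraries (log2 5.98 ± 0.82, limma adjusted p = 0.000135), where 0 reads in healthy 1 allow up to 0.254 CPM, and its difference ran from 4.93 to 6.62 without healthy 1 and healthy 3. Cxcl2 was at 17.2, 23.9 and 19.8 CPM in the healthy libraries and 270.0, 242 and 303 CPM in the nephritic libraries, 13.4-fold higher (log2 3.75 ± 0.67, limma adjusted p = 0.00124). For both genes every nephritic library exceeded every healthy one.

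The promoter windows of both genes, from 250 bases before to 50 bases after the start in RefSeq on GRCm38.p6, are shown because the genes moved together and hold the same NF-kB motif. The windows are chr5:90890995-90891294 and chr5:90903649-90903948, both on the plus strand. Capitals mark the match to GGANNTTCC, searched on both strands, which begins 70 bases before the start of Cxcl1 and 96 before that of Cxcl2.
Cxcl1: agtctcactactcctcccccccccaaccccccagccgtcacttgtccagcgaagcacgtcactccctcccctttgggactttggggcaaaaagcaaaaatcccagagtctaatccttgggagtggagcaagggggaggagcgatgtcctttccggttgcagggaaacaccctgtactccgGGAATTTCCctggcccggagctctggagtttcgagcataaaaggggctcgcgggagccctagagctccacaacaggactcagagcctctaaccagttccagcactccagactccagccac
Cxcl2: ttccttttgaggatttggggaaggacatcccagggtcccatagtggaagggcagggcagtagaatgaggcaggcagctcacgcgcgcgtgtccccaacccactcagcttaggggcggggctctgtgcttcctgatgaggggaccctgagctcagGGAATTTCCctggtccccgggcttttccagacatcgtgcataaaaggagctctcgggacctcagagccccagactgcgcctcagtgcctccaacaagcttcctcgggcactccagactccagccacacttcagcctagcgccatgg
The motif is held by 2 of the 3 members of this list, by 5.67% of the 9610 members with a window and by 4.86% of all 27025 genes in the table. The match describes letters only.

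Of 7 T cell attracting members 6 rose and 1 fell, with a median of 1.98, and with leukocyte scaling 4 rose and 1 fell. Cxcl9 (chr5:92321347-92328079), an interferon-gamma induced ligand of CXCR3, was at 8.87, 11.7 and 10.97 CPM in the healthy libraries and 127, 121 and 158 CPM in the nephritic libraries, 12.8-fold higher (log2 3.68 ± 0.21, limma adjusted p = 3.30e-07). Ccl17 and Ccl22, ligands of CCR4, were at 6.000, 25.98 and 25.7 and 6.34, 17.3 and 14.8 CPM in health and 98.3, 87.7 and 115 and 41.6, 34.3 and 55.4 CPM in nephritis, without overlap, and the difference of Ccl17 fell from 2.64 to 1.94 without healthy 1. Cxcl16, a membrane-bound ligand of CXCR6, rose less, by 0.81 ± 0.20 on the log2 scale, and did not pass with leukocyte scaling (0.38, adjusted p = 0.176). The member that fell was Ccl5, a chemokine made by T cells and NK cells among others, named after its values were seen, at 172, 232 and 227 CPM in health and 109.6, 92.3 and 154 CPM in nephritis (limma adjusted p = 0.00778).

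Of 8 monocyte-attracting members 3 rose and 0 fell, and with leukocyte scaling 1 rose and 0 fell. Ccl12 (chr11:82101845-82103400), a ligand of CCR2 in mice, was at 0, 0.198 and 0.0590 CPM in the healthy libraries and 12.3, 11.7 and 19.00 CPM in the nephritic libraries (log2 7.22 ± 0.90, limma adjusted p = 6.96e-05), so it was almost undetected in health and present in every nephritic library. Ccl6 and Ccl9, ligands of CCR1, were already high in health, at 229, 279.9 and 209 and 222, 269.6 and 301 CPM, and reached 402, 413 and 531 and 383, 406 and 478 CPM (limma adjusted p = 0.0317 and 0.0378). Those 2 calls are weak: without healthy 1 or any of several other single libraries only 1 of the 3 monocyte-attracting calls was left. Ccl2, the best-known CCR2 ligand, named after its values were seen, had 713, 718 and 478 CPM in health and 806, 961 and 941 CPM in nephritis and did not pass (limma adjusted p = 0.118). Ccl3, Ccl4 and Ccl7, also named after their values were seen, did not pass either. They were at log2 0.01, -0.04 and 0.67 (limma adjusted p = 0.973, 0.911 and 0.0879).

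On the receptor side, 5 rose and 4 fell among 13 chemokine receptor members, and with leukocyte scaling 4 rose and 4 fell. Ccr1, a receptor for CCL3, CCL5 and related ligands, was at 90.3, 83.4 and 61.5 CPM in health and 248, 280.4 and 309 CPM in nephritis, without overlap. Ccr7 (chr11:99144196-99155077), the receptor that guides migrating dendritic cells to lymph nodes, moved down with no overlap, at 162, 144 and 130.3 CPM in the healthy libraries and 46.1, 41.7 and 43.5 CPM in the nephritic libraries (log2 -1.73 ± 0.15, limma adjusted p = 6.93e-06).

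Cytokine genes changed individually more than as a group: of 18 members 6 rose and 2 fell, and with leukocyte scaling 4 rose and 3 fell. The 2 falls became 1 without healthy 2 or nephritic 1. Il1rn (chr2:24336853-24351494), the antagonist of the IL-1 receptor, was at 13.4, 21.6 and 11.9 CPM in the healthy libraries and 144, 117 and 167 CPM in the nephritic libraries (log2 3.22 ± 0.62, limma adjusted p = 0.00164). Il1b, the agonist of the same receptor, named after its values were seen, was much more abundant in health and rose less, at 518, 563 and 469.7 CPM and 1065, 1025 and 1272 CPM (log2 1.11 ± 0.29, limma adjusted p = 0.00954). Il23a, the IL-23 specific chain that supports IL-17 producing T cells, had 0 reads in the 3 healthy libraries and 1.06, 1.15 and 3.82 CPM in nephritis. Against a floor of 3 reads over the healthy group it was at least 35.3-fold higher, and nephritic 3 held most of its level.

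Il12b, the chain shared by IL-12 and IL-23, was low in both states, at 0.254, 1.19 and 0.0590 and 2.18, 3.58 and 2.21 CPM, and its log2 difference of 3.04 ± 0.72 ran from 2.12 to 4.01 without healthy 3 and healthy 2. Ltb (chr17:35194439-35196320), which encodes lymphotoxin beta, fell from 8.03, 10.7 and 10.5 CPM to 0.585, 0.682 and 0.899 CPM, with every nephritic library under 1 CPM (log2 -3.73 ± 0.47, limma adjusted p = 7.87e-05). Tnf, named after its values were seen, was at 42.3, 49.8 and 37.9 and 29.4, 26.4 and 31.6 CPM and did not pass (limma adjusted p = 0.172). It was lower with leukocyte scaling (-0.996, adjusted p = 0.00838).

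All calls on the list of Fc receptors and their signalling genes were rises. The Fc receptor genes Fcer2a and Fcmr, which are on the B cell list, fell instead, by log2 -2.97 and -6.39 (limma adjusted p = 0.000388 and 0.000786). Fcgr2b did not pass, at 0.32 (limma adjusted p = 0.156). Fcmr and Fcgr2b were named after their values were seen. Of 16 members of the Fc receptor list 10 rose and none fell, with a median of 0.81, and with leukocyte scaling 6 rose and none fell. Beside Fcgr3, the kinase gene Fgr (chr4:132974095-133001910), a Src-family kinase of myeloid cells, was at 184, 187 and 163 CPM in the healthy libraries and 707, 669 and 702 CPM in the nephritic libraries (log2 1.96 ± 0.12, limma adjusted p = 4.60e-07). Syk, the kinase that carries the signal of activating Fc receptors, was at 68.03, 78.9 and 79.4 CPM in health and 204, 193 and 186 CPM in nephritis. Fcgr1, the high-affinity IgG receptor that is also listed among macrophage markers and was named after its values were seen, was at 1.69, 7.67 and 8.38 CPM and 39.8, 44.1 and 44.3 CPM. Its log2 difference of 3.15 ± 0.68 (limma adjusted p = 0.00304) became 2.41 without healthy 1.

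Complement genes showed a like pattern. Of 18 members 11 rose and 1 fell, with a median of 1.65, and with leukocyte scaling 7 rose and 1 fell; 7 rose without nephritic 3. C3ar1 (chr6:122847138-122856161), the receptor for the C3a fragment, was at 1.86, 6.29 and 5.90 CPM in the healthy libraries and 54.1, 82.1 and 58.2 CPM in the nephritic libraries (log2 3.94 ± 0.65, limma adjusted p = 0.000495). The genes of the 3 C1q chains, named after their values were seen, were at 2.48 ± 2.37, 20.5 ± 10.8 and 1.58 ± 0.563 CPM for C1qa, C1qb and C1qc in health and at 14.99 ± 7.02, 194 ± 78.4 and 17.8 ± 7.49 CPM in nephritis (SD, n = 3). The log2 difference of C1qa, 3.36, ran from 2.02 to 4.29 without healthy 1 and healthy 2, and its call was lost without healthy 1, nephritic 2 or nephritic 3 (limma adjusted p = 0.0648, 0.0578 and 0.0718). The gene that fell was Cd55, which encodes a membrane inhibitor of complement activation, at 23.7, 21.98 and 14.1 CPM in health and 4.68, 3.19 and 4.42 CPM in nephritis (log2 -2.26 ± 0.36, limma adjusted p = 0.000383).

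C-type lectins went both ways. Of 21 members 8 rose and 4 fell, with leukocyte scaling 4 rose and 6 fell, so that there the falls outnumbered the rises, and 4 rose without healthy 3. Clec5a, an activating receptor of myeloid cells, was at 2.87, 8.61 and 9.85 CPM in the healthy libraries and 75.1, 76.4 and 97.6 CPM in the nephritic libraries (log2 3.71 ± 0.40, limma adjusted p = 2.98e-05). Clec7a, the beta-glucan receptor dectin-1, was at 111, 141 and 76.4 CPM and 542, 519 and 539 CPM, with the nephritic libraries close together. A lectin that fell, Cd209a, which marks monocyte-derived and type 2 dendritic cells, was named after its values were seen. It was at 396, 458 and 410.1 CPM in health and 218, 192 and 115 CPM in nephritis (limma adjusted p = 0.00561).

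Of 20 receptors for debris and dying cells 12 rose and 1 fell, with a median of 0.89, and with leukocyte scaling 4 rose and 1 fell. Beside Stab1, Msr1 and Axl, the integrin chain Itgav, which binds vitronectin and apoptotic cells, rose from 44.8, 56.8 and 52.7 to 107, 98.9 and 101 CPM, a rise that did not pass with leukocyte scaling (adjusted p = 0.155). Of 22 members of the Toll-like receptor list 7 rose and 2 fell, with leukocyte scaling 2 rose and 3 fell, and 3 or 4 rose when a nephritic library was left out. With the level of tubule markers as a covariate, a setting chosen after seeing the data, none rose and 2 fell. Cd14, the coreceptor for lipopolysaccharide, was at 539, 649 and 725 CPM in the healthy libraries and 2014, 2443 and 2266 CPM in the nephritic libraries. Tlr13, a sensor of bacterial ribosomal RNA in mice, went from 11.7, 36.7 and 15.99 to 88.3, 96.8 and 100.2 CPM, while Tlr3, the sensor of double-stranded RNA that is high in cDC1, went from 13.4, 14.6 and 12.4 to 6.75, 6.35 and 7.31 CPM. All 3 had no overlap.

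Interferon-induced genes rose. Of 14 interferon-gamma induced GTPase members 9 rose and 1 fell, with a median of 0.95, and with leukocyte scaling 5 rose and 1 fell. Gbp7 (chr3:142530342-142550149), a guanylate-binding protein of defence against intracellular pathogens, was at 31.9, 36.3 and 25.3 CPM in the healthy libraries and 167, 152 and 152 CPM in the nephritic libraries (log2 2.35 ± 0.15, limma adjusted p = 6.29e-07). Gbp2b and Gbp3, of the same cluster on chromosome 3, went from 8.54, 7.42 and 10.97 and 12.3, 9.80 and 5.78 CPM to 64.4, 62.4 and 79.1 and 53.00, 50.3 and 58.8 CPM. Iigp1, an immunity-related GTPase, was at 0, 1.19 and 0 CPM in the healthy libraries and 17.8, 9.33 and 14.2 CPM in the nephritic libraries; its log2 difference of 6.86 ± 1.12 ran from 5.88 to 8.56, without healthy 3 and healthy 2.

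Of 26 type I interferon stimulated members 11 rose and none fell, with a median of 0.59, and with leukocyte scaling 7 rose and none fell. With the tubule covariate 3 rose and none fell. The other 15 did not pass in CPM, among them Ifit1, Ifit3 and Mx1, named after their values were seen. Their log2 differences were 0.30, -0.59 and 0.13 (limma adjusted p = 0.588, 0.322 and 0.692). Irf7, which amplifies type I interferon, went from 32.5, 35.9 and 25.02 to 60.4, 69.6 and 77.6 CPM and Ifit2, an inhibitor of viral translation, from 7.27, 6.98 and 8.50 to 21.4, 19.6 and 18.7 CPM. Isg15, a ubiquitin-like modifier named after its values were seen, was at 0.169, 1.78 and 3.48 CPM and 9.25, 9.41 and 12.96 CPM (log2 3.24 ± 0.74, limma adjusted p = 0.00422), and its difference ran from 2.05 to 4.08 without healthy 1 and healthy 3.

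Promoter windows of Cxcl9, Gbp7 and Isg15 are shown for the interferon motifs in them. They lie at chr5:92328030-92328329 on the minus strand, chr3:142530086-142530385 on the plus strand and chr4:156200769-156201068 on the minus strand (RefSeq, GRCm38.p6), and are written 5′ to 3′ along the gene. Capitals mark matches on either strand to the interferon response motif GAAANNGAA, and in Gbp7 also to the gamma activated motif TTCNNNGAA.
Cxcl9: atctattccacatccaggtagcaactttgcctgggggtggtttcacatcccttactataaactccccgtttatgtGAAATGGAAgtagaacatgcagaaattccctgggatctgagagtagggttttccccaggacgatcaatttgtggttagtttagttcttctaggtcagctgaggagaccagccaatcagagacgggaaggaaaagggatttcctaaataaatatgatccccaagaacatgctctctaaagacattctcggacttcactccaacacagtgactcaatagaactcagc
Gbp7: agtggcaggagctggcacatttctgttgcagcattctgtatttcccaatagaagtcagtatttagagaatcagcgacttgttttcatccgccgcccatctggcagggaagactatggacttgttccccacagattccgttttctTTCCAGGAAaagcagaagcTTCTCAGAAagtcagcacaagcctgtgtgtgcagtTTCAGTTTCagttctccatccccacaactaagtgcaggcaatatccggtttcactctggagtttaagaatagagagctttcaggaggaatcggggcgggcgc
Isg15: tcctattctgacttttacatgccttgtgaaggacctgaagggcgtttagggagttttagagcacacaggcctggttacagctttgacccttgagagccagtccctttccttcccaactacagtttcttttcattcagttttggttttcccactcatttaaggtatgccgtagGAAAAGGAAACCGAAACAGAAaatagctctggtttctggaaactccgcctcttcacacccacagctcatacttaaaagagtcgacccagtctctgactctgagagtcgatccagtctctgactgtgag
The match in Cxcl9 begins 175 bases before the start. Gbp7 has 2 gamma activated matches, 106 and 87 bases before the start, and 1 interferon response match at 52, and Isg15 has 3 overlapping interferon response matches that begin 78, 72 and 66 bases before it. The interferon response motif occurs in 9 of the 10 GTPase list members with a window and 11 of the 17 type I list members with one, against 9.11% of members and 9.76% of all genes in the table. Of all genes that rose 10.0% hold it, and of those that fell 8.87%.

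Genes of the NF-kB system did not move as a group: of 20 members 4 rose and 3 fell, with leukocyte scaling 2 rose and 5 fell. The inhibitor genes Nfkbia and Nfkbib, whose proteins hold NF-kB in the cytoplasm, were lower, Nfkbia at 731, 726 and 883 CPM in the healthy libraries and 349.5, 334 and 342 CPM in the nephritic libraries (log2 -1.19 ± 0.20, limma adjusted p = 0.000564). Tnfaip2, a gene induced by TNF, was higher, at 15.97, 16.5 and 13.2 CPM and 46.3, 39.5 and 58.4 CPM.

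Among costimulatory and checkpoint ligands all calls in CPM were rises. Of 13 ligand members 8 rose and none fell, with a median of 0.93, and with leukocyte scaling 4 rose and 1 fell. Cd274 (chr19:29367455-29388095), the checkpoint ligand PD-L1, was at 16.3, 15.8 and 11.4 CPM in the healthy libraries and 55.4, 44.7 and 67.6 CPM in the nephritic libraries (log2 1.94 ± 0.21, limma adjusted p = 3.13e-05). Cd86, a ligand of CD28 and CTLA-4, was at 103, 111 and 78.9 CPM and 241, 249 and 221 CPM, and Icosl, the ligand of ICOS, at 119.8, 125 and 129 CPM and 226, 259.6 and 229.7 CPM. Icosl and Pvr did not pass with leukocyte scaling (adjusted p = 0.0505 and 0.0674).

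Of 16 MHC class II members 2 rose and 5 fell, with a median of 0.04, and with leukocyte scaling none rose and 7 fell. The 5 falls became 3 without healthy 2 or nephritic 1. H2-Eb1 (chr17:34305867-34316674), the beta chain of the I-E molecule, was at 9247, 9327 and 8896 CPM in the healthy libraries and 4505, 4728 and 5865 CPM in the nephritic libraries (log2 -0.87 ± 0.24, limma adjusted p = 0.0123), and H2-Oa, part of a regulator of peptide loading, went from 306, 290.0 and 289.5 to 115, 123 and 142 CPM. Ifi30 and Ctss, a reductase and a protease that prepare peptides in the endosome, rose by 0.85 ± 0.13 and 0.85 ± 0.21 on the log2 scale, and neither passed with leukocyte scaling. The abundant invariant chain gene Cd74, named after its values were seen, was at 137460, 139960 and 137270 and 120530, 118450 and 117900 CPM and did not pass in CPM (log2 -0.22 ± 0.23, limma adjusted p = 0.487). Among the 17 MHC class I members 4 rose and 3 fell in CPM, and with leukocyte scaling 1 rose and 5 fell. Erap1, a protease that trims peptides for class I, named after its values were seen, rose from 30.8, 28.7 and 27.4 to 74.3, 72.4 and 72.2 CPM. H2-D1, a class I heavy chain, was at 1900, 1937 and 1807 CPM in health and 671, 749.9 and 1159 CPM in nephritis. The 4 class I rises became 2 without healthy 3 or any nephritic library, and the 3 falls became 1 without healthy 2 or nephritic 1.

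Of 19 genes of mature dendritic cells 4 rose and 3 fell in CPM, close to the background in both directions, and with leukocyte scaling 2 rose and 6 fell. The 3 falls became 1 without healthy 1 or nephritic 3. Ccl22 and Ccl17 were up and Ccr7 down, and Traf1, an adaptor of TNF receptors, was up from 88.2, 91.9 and 84.1 to 139, 141 and 153 CPM, a rise that did not pass with leukocyte scaling (adjusted p = 0.261).

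Genes of DNA replication and mitosis rose together. Of 29 replication members 19 rose and none fell, with a median of 0.94, and of 30 mitosis members 17 rose and 1 fell, with a median of 0.75. With leukocyte scaling 11 rose and 3 fell for replication and 7 rose and 1 fell for mitosis. Mcm4 and Mcm5 (chr8:75109569-75128439) encode subunits of the replicative helicase. Mcm5 was at 32.4, 42.1 and 37.5 CPM in the healthy libraries and 145, 135 and 130.2 CPM in the nephritic libraries (log2 1.88 ± 0.15, limma adjusted p = 2.68e-06), and Mcm4 at 67.01, 54.8 and 51.3 CPM and 211, 203 and 182 CPM. Tyms and Rrm1, which supply deoxynucleotides, rose by 1.38 ± 0.14 and 1.14 ± 0.13 on the log2 scale, and neither gene's groups overlapped. Among mitosis genes Ncapd2, a condensin subunit, was at 16.8, 16.2 and 11.3 CPM and 37.7, 45.1 and 46.7 CPM, and Bub1, a kinase of the spindle checkpoint, at 6.000, 3.22 and 6.79 CPM and 15.9, 20.3 and 17.5 CPM.

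The promoter window of Mcm5, at chr8:75109259-75109558 on the plus strand (RefSeq, GRCm38.p6), is shown for its E2F motif, in capitals. The motif was searched as TTTGGCGC or TTTCCCGC on both strands, and the match begins 149 bases before the start, on the minus strand.
Mcm5: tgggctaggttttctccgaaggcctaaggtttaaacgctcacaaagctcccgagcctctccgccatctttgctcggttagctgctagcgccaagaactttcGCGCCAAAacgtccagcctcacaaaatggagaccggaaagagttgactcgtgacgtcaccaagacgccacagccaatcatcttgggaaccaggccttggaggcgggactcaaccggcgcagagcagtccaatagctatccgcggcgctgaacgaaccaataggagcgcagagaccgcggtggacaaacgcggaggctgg
Of the 24 replication members with a window 8 hold the motif (33.3%), against 3.41% of members and 1.8% of all genes in the table. It is in 4.51% of the genes that rose and 2.27% of those that fell.

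Matrix and repair genes had the second-highest median of the functional lists. Of 27 members 14 rose and 1 fell, with a median log2 difference of 2.35, and with leukocyte scaling 13 rose and 1 fell. Mmp12 (chr9:7344381-7369499), the macrophage elastase, was at 121, 153 and 85.8 CPM in the healthy libraries and 731, 810.2 and 852 CPM in the nephritic libraries (log2 2.77 ± 0.24, limma adjusted p = 6.17e-06). Adam8, a metalloprotease of leukocytes, went from 25.7, 18.3 and 22.5 to 111, 119 and 123 CPM. Timp1, an inhibitor of metalloproteases, had 1 read in the healthy libraries and 5.85, 6.82 and 9.82 CPM in nephritis, a ratio of reads of 378 with a counting interval of 67.5 to 14951. Spp1, encoding osteopontin and named after its values were seen, varied within nephritis, at 414, 742 and 1311 CPM after 89.7, 99.2 and 184 CPM in health (log2 2.65 ± 0.55, limma adjusted p = 0.00363). The stromal genes Col1a1 and Dcn were at most 5.47 CPM in any library, and podocyte and stromal markers summed to 5.25 to 17.8 CPM in health and 16.1 to 20.9 CPM in nephritis.

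**Figure D4:**
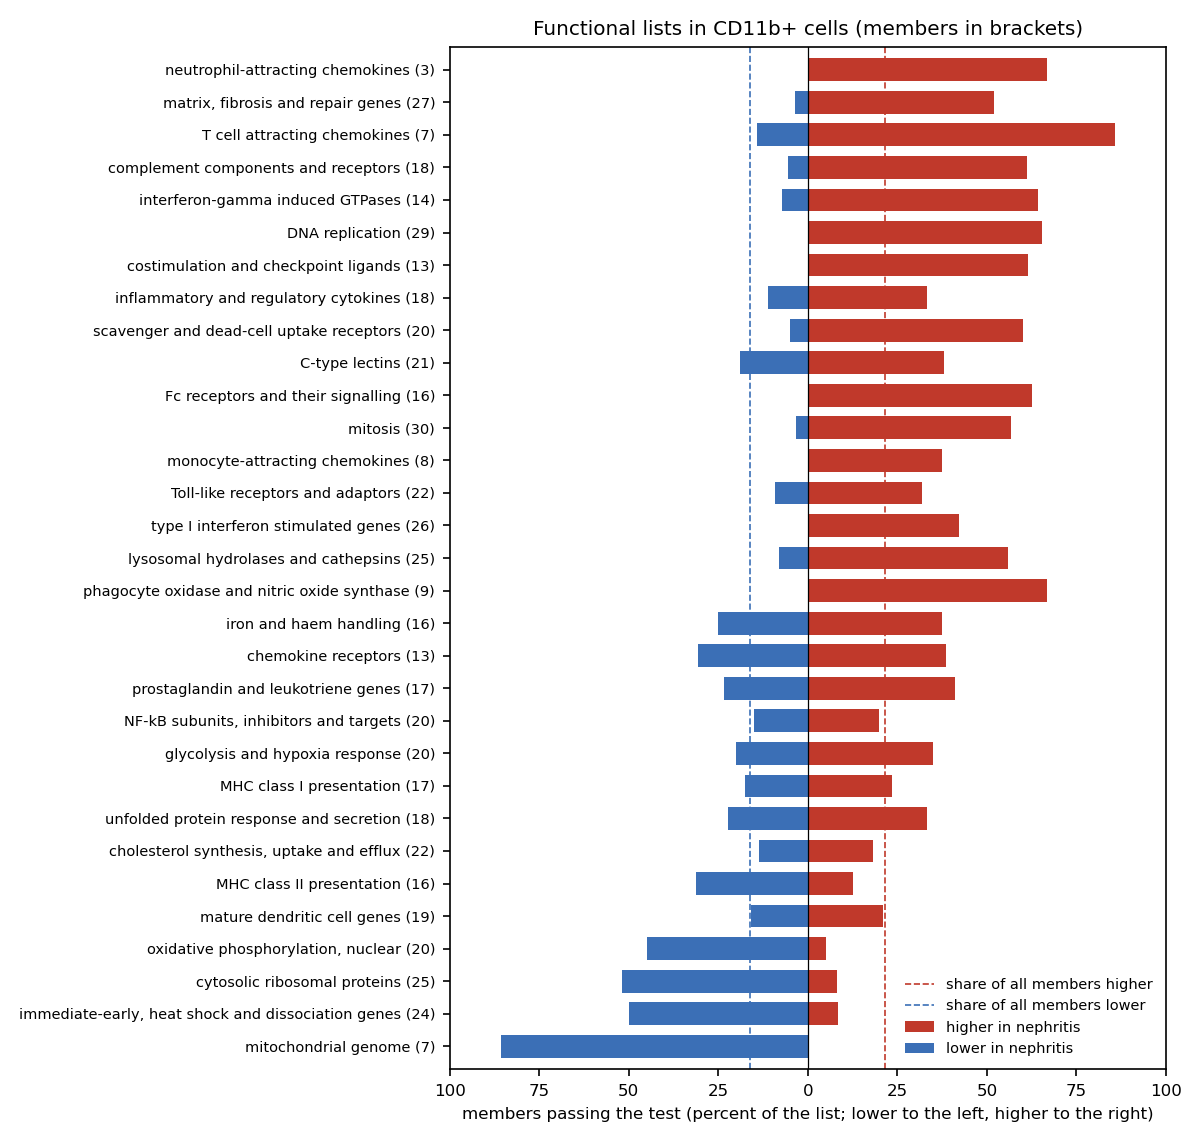
Share of each functional list's members that passed the test (percent of the list), higher in nephritis to the right in red and lower to the left in blue, from values in CPM, with the number of members in brackets. Dashed lines mark the shares over all members, 21.5% higher and 16.2% lower. T cell attracting chemokines, DNA replication and Fc receptors reach far to the right of the line, and the mitochondrial genome far to the left, while with leukocyte scaling MHC class I, mature dendritic cell, C-type lectin, Toll-like receptor, NF-kB and glycolysis genes are among those that turn to more falls than rises.

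Lysosomal genes rose, 14 rose and 2 fell of 25 members, with a median of 0.57; with leukocyte scaling 4 rose and 2 fell. Psap (chr10:60277627-60302597), the precursor of the saposins that aid lipid breakdown, was at 411, 535 and 412 CPM in the healthy libraries and 2317, 3414 and 2513 CPM in the nephritic libraries (log2 2.59 ± 0.21, limma adjusted p = 3.92e-06). Ctsc, a protease that activates granule enzymes, was at 435, 548 and 481 CPM and 1402, 1409 and 1395 CPM, with the nephritic libraries almost equal. Of 9 members of the phagocyte oxidase list 6 rose and none fell, and with leukocyte scaling 2 rose and 1 fell. The 6 became 2 without healthy 3, nephritic 2 or nephritic 3, and with the tubule covariate none of the list passed in either direction. Cybb, the catalytic chain of the oxidase, was at 529, 591 and 389 CPM and 1038, 1266 and 932 CPM, and Ncf4, a cytosolic subunit, at 136, 155 and 108 CPM and 317, 380.0 and 399 CPM. Nos2, the inducible nitric oxide synthase, stayed below the member minimum.

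Iron genes split: 6 rose and 4 fell of 16, with leukocyte scaling 2 rose and 4 fell. Slc11a1, the metal transporter of the phagosome, went from 31.4, 41.2 and 23.8 to 96.9, 118 and 126 CPM, while Fth1, the ferritin heavy chain that stores iron, went from 3762, 3949 and 4572 to 1893, 2164 and 2534 CPM. Prostaglandin and leukotriene genes also split, 7 rose and 4 fell of 17, with leukocyte scaling 4 rose and 4 fell. Pla2g7, which inactivates platelet-activating factor, was at 58.9, 93.8 and 40.9 CPM in the healthy libraries and 231, 323 and 405 CPM in the nephritic libraries (limma adjusted p = 8.70e-05). The receptors Ltb4r1, for leukotriene B4, and Ptger4, for prostaglandin E2, had log2 differences of -2.29 ± 0.44 and -1.17 ± 0.23, and the 4 falls of this list became 2 without healthy 2 or nephritic 3.

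Genes of the respiratory chain fell more often than they rose in CPM and with leukocyte scaling. Of 20 nuclear genes of oxidative phosphorylation 1 rose and 9 fell, with a median of -0.43, and with leukocyte scaling none rose and 8 fell. The 9 falls became 5 without healthy 3 or nephritic 2. With the tubule level as a covariate, chosen after seeing the data, the balance turned: 3 rose and 2 fell, with a median of 0.16. Of the 7 member genes of the mitochondrial genome none rose and 6 fell, with a median of -1.03, and 7 fell with leukocyte scaling. With the tubule covariate none rose and 2 fell, with a median of -0.47. Uqcrfs1, the Rieske iron-sulfur protein of complex III, was at 83.1, 75.1 and 96.8 CPM in the healthy libraries and 27.3, 24.2 and 28.1 CPM in the nephritic libraries (log2 -1.67 ± 0.14, limma adjusted p = 3.96e-06). Cox5a, a subunit of cytochrome oxidase, went from 61.7, 51.4 and 66.6 to 1.65, 1.75 and 2.96 CPM, the largest fall of the list. Its log2 difference was -4.85. Other subunits of that enzyme, Cox4i1, Cox6c and Cox7a2, named after their values were seen, had -0.56, -0.47 and -0.53 (limma adjusted p = 0.00780, 0.0638 and 0.0339). Cox6c thus did not pass, and the call of Cox7a2 was lost without healthy 2, healthy 3 or nephritic 1. Why Cox5a stood apart was not tested. All 27 genes of the mitochondrial genome took 3.19 to 3.77% of reads in health and 1.78 to 2.20% in nephritis. Glycolysis genes went both ways: 7 rose and 4 fell of 20, with leukocyte scaling 3 rose and 6 fell, and the 4 falls became 2 without healthy 3, nephritic 1 or nephritic 2. Pfkp and Pkm, rate-controlling enzymes of glycolysis, and Hif1a, the oxygen-sensitive transcription factor that induces it, rose from 87.6, 90.5 and 83.8, 242, 259 and 267 and 35.8, 34.7 and 34.1 CPM to 258, 258 and 270.4, 670.3, 655 and 706 and 101, 88.5 and 96.5 CPM. Gapdh and Hk2, enzymes of the same pathway named after their values were seen, fell by 1.30 ± 0.23 and 1.11 ± 0.28 on the log2 scale (limma adjusted p = 0.000758 and 0.00794).

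More ribosomal protein genes and immediate-early genes fell than rose. Of 25 ribosomal protein members 2 rose and 13 fell, with leukocyte scaling 1 rose and 19 fell, and 8 fell without nephritic 1 or nephritic 2. Rpl13 was at 101, 75.8 and 81.9 CPM and 14.6, 15.5 and 20.9 CPM, and Rps7, Rps2 and Rpl38 share 59.9, 71.3 and 40.2% of their 50-base stretches with other genes, so their counts are uncertain. Of 24 immediate-early, heat shock and dissociation members 2 rose and 12 fell, with a median of -0.56, and with leukocyte scaling none rose and 14 fell. Jun (chr4:95049034-95052222), a subunit of the AP-1 transcription factor, was at 570.5, 440.4 and 386 CPM in the healthy libraries and 97.1, 88.6 and 76.3 CPM in the nephritic libraries (log2 -2.40 ± 0.17, limma adjusted p = 1.28e-06), its partner Junb at 264, 227 and 247 CPM and 42.5, 35.95 and 40.9 CPM, and Ier2, another fast-responding gene, at 179, 221 and 203 CPM and 19.6, 19.2 and 21.8 CPM. Kidneys of both states were digested with collagenase before the sort. Fos, the best-known partner of Jun, named after its values were seen, was at 2524, 2549 and 2167 and 2592, 3242 and 2510 CPM and did not pass (limma adjusted p = 0.453).

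Short and GC-rich genes fell more often than others, and this trend runs through the lists just described. In quintile 1 of transcript length, the shortest, the median log2 difference was -0.32 and 30.8% of genes fell, against 0.23 and 8.12% in quintile 5. In the quintile richest in GC it was -0.23, against 0.26 in the poorest. After the trend with GC content and length was removed, an analysis chosen after seeing the data, 20.1% of members rose and 14.9% fell. Ribosomal proteins then split evenly, as 5 rose and 5 fell, and the balance turned for MHC class II presentation, where 3 rose and 2 fell with a median of 0.28; for MHC class I 5 rose and 4 fell, for nuclear oxidative phosphorylation 5 rose and 7 fell, for the mitochondrial genome 4 fell and none rose, for the immediate-early list 2 rose and 9 fell, for DNA replication 18 rose and 2 fell, and for the interferon GTPases 8 rose and 1 fell. The part of RNA quality or library preparation in the trend was not tested.

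Genes of the kidney tubule were also lower. None of the 18 tubule members rose and 11 fell, with a median of -1.25, and 12 fell with leukocyte scaling. Kap (chr6:133849851-133853762), an androgen-regulated protein of the proximal tubule, was at 963, 709 and 1543 CPM in the healthy libraries and 102, 71.1 and 90.1 CPM in the nephritic libraries (log2 -3.55 ± 0.30, limma adjusted p = 5.94e-06). The transporters Slc7a13 and Slco1a1, both of the proximal tubule, went from 139, 111 and 208 and 71.2, 55.6 and 104 CPM to 24.5, 11.1 and 12.3 and 14.03, 6.99 and 3.22 CPM, and in both genes healthy 3 was highest. The 18 tubule markers summed to 9351, 12062 and 22474 CPM in health, 0.963 to 2.30% of reads, and 5458, 4693 and 7392 CPM in nephritis, 0.462 to 0.743%. Umod, the uromodulin gene of the thick ascending limb, was named after its values were seen. It did not follow, at 384, 476 and 476 CPM and 410.2, 383 and 1358 CPM (limma adjusted p = 0.476).

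Ebf1, a transcription factor of B cell commitment, and Tnfrsf13c, the receptor for the B cell survival factor BAFF, were at 69.97, 55.3 and 34.5 and 19.1, 13.5 and 15.5 CPM in health and 6.43, 4.43 and 6.52 and 1.17, 1.53 and 2.62 CPM in nephritis. Adora2a, a receptor for adenosine that restrains leukocytes, went from 10.5, 15.05 and 12.6 to 1.12, 1.58 and 2.02 CPM, and Lmo4, a transcriptional cofactor, from 99.9, 97.3 and 96.00 to 30.5, 31.4 and 27.9 CPM. In none of these genes did the groups overlap. Ttc36 had the largest fall by this measure, from 44.5, 32.3 and 68.9 to 0.159, 0.256 and 0.412 CPM, but other genes cover 47.6% of its exons, and the counts of Gimap1 and Acsm3 are uncertain for the same reason, with 36.0 and 39.7% covered. The tubule sums of the states do not overlap, so tubule RNA and state cannot be fully told apart. With the tubule level as a covariate, an analysis chosen after seeing the data, 1432 genes rose and 806 fell.

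The response of CD11b+ cells was set against that of CD103+ cells to see where it differs. The labels do not pair the libraries by mouse, so any sharing of mice was left out of the fit, and a block of library number gave 4551 genes in place of 4861. For 4861 members, 37.2%, the log2 difference between states differed between the subsets (limma adjusted p under 0.05), of which 1965 were also called in CD11b+ cells. In CPM the response was larger in CD11b+ cells for 18.1% of members and smaller for 19.1%. With leukocyte scaling it was larger for 43.9% and smaller for 1.46%, so directions here depend on the scaling. Matrix genes had larger responses in CD11b+ cells with either scaling: their median was 2.35 there and 0.04 in CD103+ cells, and 16 had a larger and 0 a smaller log2 difference in CD11b+ cells, against 22 and 0 with leukocyte scaling. Mmp12 differed by 2.56 between the responses (adjusted p = 0.000323), Tgfbi by 1.98 (adjusted p = 0.00187), Flrt3 by 6.58 (adjusted p = 0.000894) and Fn1 by 3.25 (adjusted p = 0.00606). For macrophage markers the medians were 1.66 and 0.12, and 13 had a larger and 1 a smaller log2 difference in CD11b+ cells, against 16 and 0 with leukocyte scaling.

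Complement genes had medians of 1.65 and 0.14, and 8 had a larger and 3 a smaller log2 difference in CD11b+ cells, against 11 and 1 with leukocyte scaling. Cell-cycle genes had smaller responses in CD11b+ cells in CPM, as did the leukocyte scaling genes themselves, of which 26 of 36 had a smaller response and 0 a larger. For DNA replication the medians were 0.94 and 2.53, and 1 had a larger and 25 a smaller log2 difference in CD11b+ cells, and for mitosis the medians were 0.75 and 2.60, with 0 larger and 29 smaller. With leukocyte scaling 1 was larger and 3 smaller for replication, and 0 larger and 9 smaller for mitosis. Mcm5 rose by 1.88 on the log2 scale in CD11b+ cells and had a difference of 3.10 in CD103+ cells in CPM, and with leukocyte scaling its responses did not pass for a difference (-0.05 ± 0.32, limma adjusted p = 0.903). Neutrophil-attracting chemokines gave no gene that passed for a difference between the responses, at medians of 3.75 and 1.64, and of the T cell attracting chemokines 1 passed, with a smaller response. With leukocyte scaling 2 and 4 passed, all larger in CD11b+ cells. Cxcl9 rose by 3.68 in CD11b+ cells and had 3.46 in CD103+ cells (difference 0.22, limma adjusted p = 0.599), and with leukocyte scaling the difference was 1.39 (limma adjusted p = 0.0194).

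These comparisons of the responses carry a large difference in tubule RNA. The tubule markers summed to 54896, 61562 and 38755 CPM in the healthy and 4553, 5261 and 4524 CPM in the nephritic CD103+ libraries, so their fall was far steeper there (median -3.59) than in CD11b+ cells (median -1.25). With the tubule level as a covariate no gene passed for a difference between the responses, where 4861 did without it, and the part of tubule RNA in the differences cannot be told apart from that of the subsets.

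**Figure D5:**
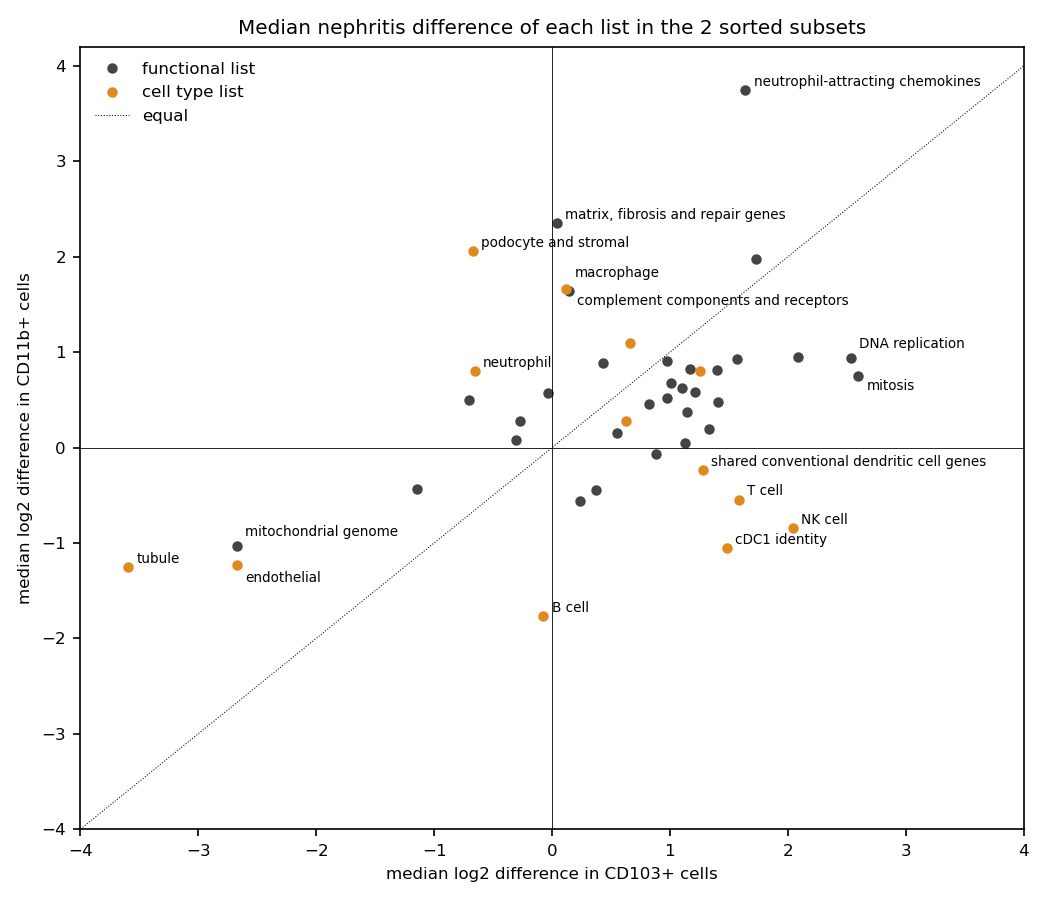
Median log2 difference, nephritic minus healthy, of each gene list in CD103+ cells (horizontal) and in CD11b+ cells (vertical), from values in CPM, with black points for functional lists, orange points for cell type lists and a dotted line where both are equal. Matrix, macrophage and complement lists lie near 0 in CD103+ cells and above 1.6 in CD11b+ cells, and DNA replication and mitosis lie above 2.5 in CD103+ cells and below 1 in CD11b+ cells, while T cell, NK cell and cDC1 lists have medians above 0 in CD103+ cells and below 0 in CD11b+ cells. The tubule sums of the healthy CD103+ libraries are several times those of the healthy CD11b+ libraries.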

How the data were processed

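RNA was measured in 12 libraries of sorted kidney cells, 3 for each of 4 groups. The deposited values are log2 CPM with an offset of 0.5 reads, made by the authors. The submitters' processing notes name the tools edgeR, featureCounts 1.4.5, STAR 2.0.4b and Subread without a role for each, and no genome build. Libraries were made with a low-input SMARTer kit per the labels' protocols, and no source used here says whether counting used strand, so overlapping and antisense genes are uncertain. Whole reads were recovered from the values within 0.05 reads and used for CPM. After 160 repeated lines were dropped 26121 genes were left, and coordinates come from GENCODE M21 on GRCm38, matched by gene ID, which may not be the authors' build.

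The log2 values of 14180 genes were modelled by limma 3.58.1 under R 4.3.3 (trended, robust, 1 mean per group), with two-sided tests and Benjamini-Hochberg adjustment over all fitted genes and a threshold of 0.05. Fold changes are on the scale of the deposited log2 values and understate those of low genes. Tables and figures used Python 3.11.15, numpy 2.4.6, pandas 2.3.3, scipy 1.17.1 and matplotlib 3.10.9. The scripts were tested on simulated data. Library numbers do not pair healthy and nephritic mice, which are different animals (correlations of same-numbered deviations -0.026, 0.019 and -0.002).

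Members and the 46 gene lists (845 of 851 entries found) were chosen with earlier results of these data known. Named genes are the 15 largest rises and falls and the 8 smallest p-values each way among genes called without overlap and with a mean of at least 10 CPM in the higher group, up to 4 members of each list by p-value, and the fixed markers. Unnamed gene models and antigen receptor segments were passed over, and genes that may not be named are not reported here. Alternatives changed the pseudocount, filter, scaling, model, threshold and libraries. Counting intervals and floors cover counting error only.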

Additional observations from a re-analysis of the deposited data

Results flagged for a closer look

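Every value here is a log2 response to nephritis in CD11b+ cells minus that in CD103+ cells, with limma adjusted p under 0.05 for the difference itself. It was passed by 4861 members, with 18.1% of members larger and 19.1% smaller in CD11b+ cells in CPM, against 43.9% and 1.46% with leukocyte scaling, and the values below are those of the genes chosen for size, p-value or as markers. Groups of 3 libraries were not searched for single libraries far from the others.

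Among genes that rose, the response was larger in CD11b+ cells for the adhesion gene Flrt3 (6.58), the chemokine gene Ccl12 (4.35), the scavenger receptor genes Stab1 (6.09) and Msr1 (3.76), the export pump gene Abcc3 (6.75), the collagenase gene Mmp8 (4.50), the growth factor gene Nrg1 (4.82), the lipid enzyme gene Dgat1 (0.74), and the markers Sirpa (2.35) and Tgfbi (1.98). It was smaller for the kinase gene Fgr (-1.34) and for Itgam (-0.62), which rose in both subsets in CPM.

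Among genes that fell, the tubule and metabolic genes Kap (1.41), Acsm3 (2.85), Slc7a13 (2.57), Chchd10 (1.30) and Cyp2d9 (3.29) had positive values. The values were negative for the immediate-early genes Ier2 (-2.07) and Jun (-1.23), the lymphocyte genes Gimap1 (-2.87), Tnfrsf13c (-3.59) and Ebf1 (-1.58), the adenosine receptor gene Adora2a (-2.81), and Rpl38 (-1.27), Fam50a (-0.88) and Lmo4 (-0.79). The tubule marker sums differ between the subsets by state as well, and with the tubule level as a covariate none of these differences passed, so tubule RNA and subset cannot be told apart here. With leukocyte scaling 17 of the 26 genes passed with the same sign, 6 kept the sign without passing (Gimap1, Rpl38, Ebf1, Adora2a, Fgr and Jun), and Fam50a, Lmo4 and Itgam turned positive without passing (0.29, 0.38 and 0.54).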

How the results depend on the processing

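Of the 195 genes chosen by the naming rule, all of them called, 174 kept their call and direction under every setting other than leukocyte scaling, the tubule covariate and the 2 stricter thresholds; leukocyte scaling kept 169 and the tubule covariate 132. The genes that rose numbered 2808, those that fell 2118 and those passing for the difference of the responses 4861. Under leukocyte scaling 618 rose with a median of -0.34, against 0.09 in CPM. The median was 0.051 with a pseudocount of 4 CPM and 0.048 with quantile normalization. With the tubule level as a covariate 1432 rose, 806 fell and 0 passed for the difference of the responses, and Acod1 reversed, to -0.31. At an adjusted p under 0.01, 1750 rose, 1229 fell and 2554 differed. At a log2 difference of at least 1, 1155 rose and 1329 fell. Leaving out 1 library at a time gave 2014 to 2620 genes that rose, 1485 to 1910 that fell and 3916 to 5124 that differed between the responses. With the library number as a replicate block 2704 rose, 1993 fell and 4551 differed, and 194 of those 195 genes kept their call. Leaving out single libraries also moved many list counts of 1 or 2 genes to 0 or 1. The cause was not tested for any of these changes. Levels of 3 reads, 0.112 to 0.254 CPM, limit what the healthy libraries can show for the nearly silent genes.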

Other observations

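Genes of the secretory pathway and of cholesterol handling were measured beside those described. Of 18 members of the unfolded protein response list 6 rose and 4 fell, and with leukocyte scaling 1 rose and 4 fell; the 4 falls became 1 or 2 without healthy 1, healthy 3, nephritic 2 or nephritic 3. Pdia6 and Pdia4, which form disulfide bonds in the endoplasmic reticulum, were at 278, 349 and 344 and 181, 160.5 and 186 CPM in health and 715, 707 and 756 and 402, 351 and 326 CPM in nephritis, without overlap. Hsp90b1, a chaperone of Toll-like receptors and integrins, went from 366, 406 and 402 to 695, 702 and 665 CPM, a rise that did not pass with leukocyte scaling (limma adjusted p = 0.263).

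Of 22 cholesterol members 4 rose and 3 fell, near the background, and with leukocyte scaling 2 rose and 6 fell. The 4 rises became 2 without healthy 1, nephritic 1 or nephritic 2. Soat1, which esterifies cholesterol for storage, was at 163, 151 and 138 CPM in the healthy libraries and 441, 435 and 359.9 CPM in the nephritic libraries (log2 1.45 ± 0.13, limma adjusted p = 9.24e-06). Sqle, an enzyme of cholesterol synthesis, went from 59.2, 47.2 and 55.6 to 41.5, 39.9 and 35.2 CPM. Abca1, which exports cholesterol, rose from 1.10, 5.99 and 6.20 to 14.4, 17.04 and 16.7 CPM, and its log2 difference of 2.20 became 1.39 without healthy 1.

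Plasmacytoid dendritic cell markers changed singly. Bst2, an interferon-induced surface protein, and Runx2, a transcription factor, rose by 1.91 ± 0.28 and 1.09 ± 0.28 on the log2 scale, while Ly6d went from 41.3, 41.1 and 25.02 to 18.4, 13.8 and 14.2 CPM. Their summed level overlapped between states, at 299 to 352 CPM and 327 to 385 CPM. Endothelial markers summed to 81.3 to 123 CPM in health and 52.6 to 71.7 CPM in nephritis, and 2 of 11 members fell, Ehd3 and Egfl7, 3 with leukocyte scaling and 4 without nephritic 3. None of the 10 erythroid and platelet markers was a member.

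By gene type, 161 of 299 processed pseudogenes fell and 11 rose, against 1827 and 2689 of 11927 protein-coding genes. The share of their reads that could belong to parent genes was not tested.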
